A study of Mus musculus with 6 samples.

Results

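The genes that carry an interferon signal from the cell surface to the nucleus were examined in cultured B16 melanoma cells with and without an intact IFN-γ receptor. They are 9 genes of the 55335 in the count tables, taken by name, with earlier results of these data known. They are the receptor chains Ifngr1, Ifngr2, Ifnar1 and Ifnar2, the Janus kinases Jak1, Jak2 and Tyk2, and the transcription factors Stat2 and Irf9. Each symbol matched a single Ensembl identifier. Paired-end reads of poly(A) RNA were available for 3 scrambled control and 3 IFNγR1KO cultures. Both groups are B16-BL6 cells, a mouse melanoma line, grown in the same medium without added interferon. All had been transduced with lentiviral Cas9 and a guide and selected with puromycin. The control guide was directed at GFP, although the labels give the control genotype as WT, and the IFNγR1KO guides at the first exon of Ifngr1. The IFNγR1KO cells were grown from single cells and screened by their PD-L1 level after IFN-γ. The sources do not say which guide was used for these cultures or whether the 3 were of the same clone, so properties of a clone cannot be told apart from those of the knockout.

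IFN-γ, the type II interferon, binds a receptor of IFNGR1 and IFNGR2 chains, to which JAK1 and JAK2 are attached. Type I interferons, IFN-α and IFN-β, bind IFNAR1 and IFNAR2, which carry TYK2 and JAK1. The kinases phosphorylate STAT proteins. STAT2 then enters the complex ISGF3 with IRF9 and a further STAT and acts through the interferon-stimulated response element (ISRE), whereas IFN-γ acts mainly through a STAT dimer called GAF at gamma-activated sites (GAS).

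The libraries held between 6698956 and 10579788 counts on genes, and all 3 IFNγR1KO libraries held fewer than any control library. The 7 melanocyte lineage markers (among them Pmel, Dct and Mitf) together took 27900 to 34660 CPM, counts scaled by TMM to a common library size, in every library, and none of the 7 differed between groups. Immune markers summed to at most 1 count in a library, endothelial markers to at most 2 and keratinocyte markers to at most 3. The 4 fibroblast markers summed to 4.38 to 5.97 CPM in control and 6.25 to 8.72 CPM in IFNγR1KO libraries, almost all of it from Col1a1 and Pdgfra, while Dcn and Col3a1 had 3 counts or fewer in each library. Col1a1 was higher in IFNγR1KO libraries, with 11 to 16 counts in control and 27 to 47 in IFNγR1KO libraries (log2 fold change 1.96, adjusted p = 0.0017 from edgeR). The filter on low counts kept Col1a1 only through its IFNγR1KO libraries, where it was high, so this is a description. Pdgfra did not reach an adjusted p under 0.05 (log2 fold change -0.77, adjusted p = 0.0866 from edgeR). Their part in the results was not tested. The libraries scrambled control 3 and IFNγR1KO 12 stood apart from the rest in the same way. Across 13642 tested genes, the deviations of these libraries from their group means correlated at r = 0.60, against -0.48 to 0.38 for the other 8 pairs of a control and an IFNγR1KO library. Their counts lay on longer genes, with mean exonic lengths weighted by count of 4828 and 4811 bases against 4368 to 4475 bases in the other 4 libraries. Values from a fit with a term for these libraries, and from a fit without them, are given for the 9 genes and the gene lists where they differ.

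None of the 9 genes changed between the groups (edgeR, quasi-likelihood test, Benjamini-Hochberg adjusted), where "changed" means an adjusted p under 0.05. Of all 13642 tested genes, 15.3% did, and 5.20% did so with an absolute log2 fold change over 1. At an unadjusted p under 0.05 from edgeR there were 2 of the 9, Ifngr1 and Ifnar2, where 28.9% of all tested genes passed. DESeq2's Wald test made 0 calls among the 9. At an unadjusted p under 0.05 it had 1 of the 9, where 16.2% of the genes it tested passed. All 9 genes passed the filter on low counts, with 62 to 795 counts in a library. Their log2 fold changes, IFNγR1KO over control, ran from -0.47 for Ifngr1 to 0.31 for Ifnar2. Their median was -0.05, and -0.0015 over all tested genes. The median absolute log2 fold change was 0.16 among the 9 and 0.25 among all tested genes. The 95% intervals of the 9 differences together spanned -0.82 to 0.61, so that a change of 2-fold or more lay outside every one of them. In bulk RNA, fewer cells with a transcript and less transcript per cell cannot be told apart.

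**Figure D1:**
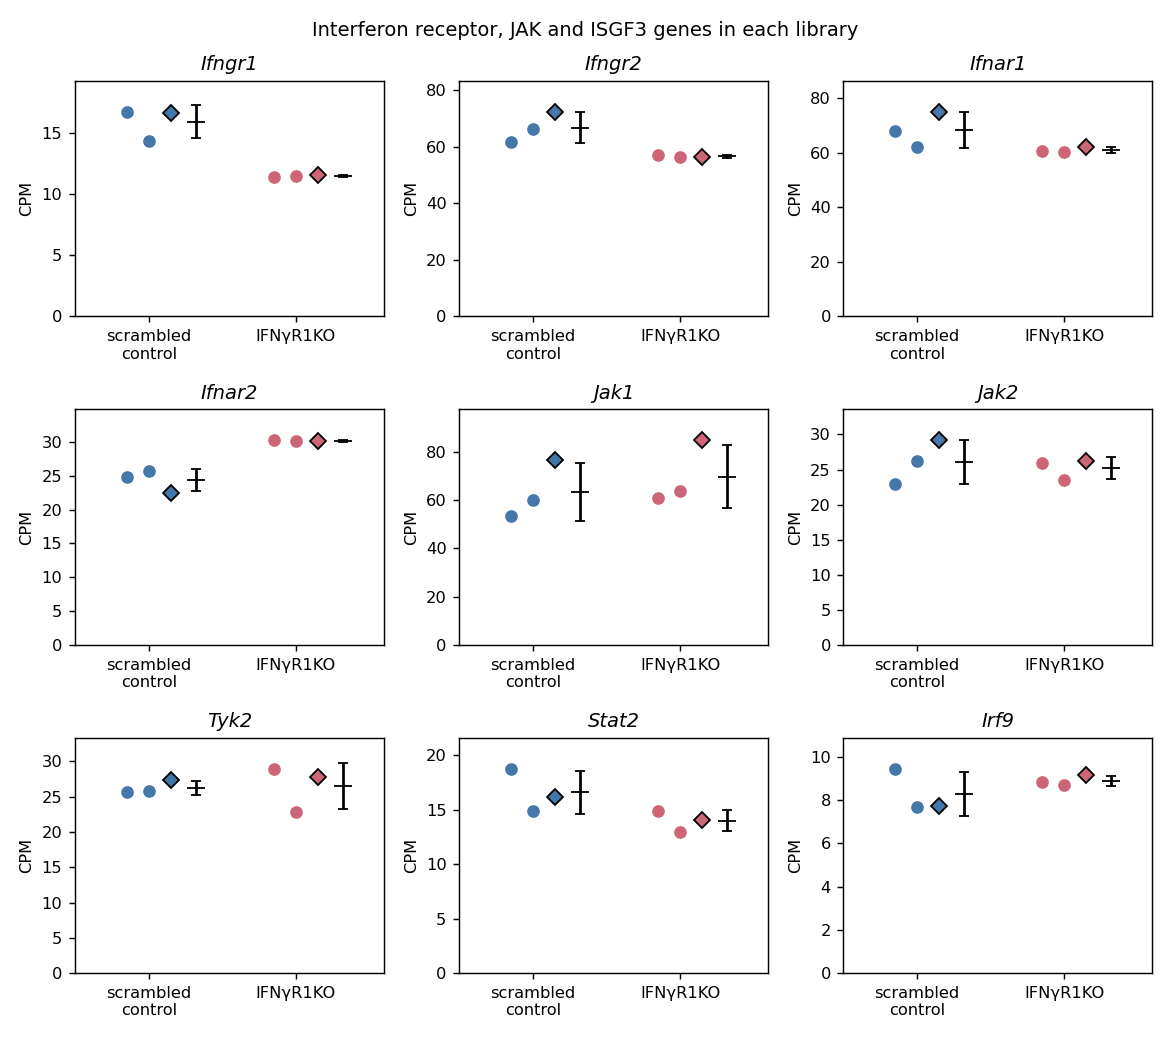
Level of each gene in CPM (vertical axis, from 0) in the 3 scrambled control (blue) and 3 IFNγR1KO libraries (red); diamonds mark scrambled control 3 and IFNγR1KO 12, and the bars beside the points give the mean ± SD. The groups lie apart for Ifngr1, Ifngr2 and Ifnar2, touch for Stat2 and overlap for the other 5 genes.

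Ifngr1 (ENSMUSG00000020009.13), the targeted gene, encodes the chain that binds IFN-γ. It lies on chromosome 10 of GRCm38, forward strand, from 19591949 to 19610229, and none of its exonic bases are shared with another gene. It was at 16.7, 14.3 and 16.6 CPM in control libraries 1, 2 and 3 and at 11.4, 11.5 and 11.5 CPM in IFNγR1KO libraries 10, 11 and 12. Every IFNγR1KO library was thus below every control library, yet the transcript remained at 0.722 times the control level. Its log2 fold change was -0.47 (standard error 0.16, 95% interval -0.82 to -0.11) with an adjusted p of 0.0729 from edgeR. Counts over the whole gene do not show whether the remaining transcript encodes a receptor. With an added term that separates scrambled control 3 and IFNγR1KO 12 from the other 4 libraries, chosen after the data were seen, the log2 fold change was again -0.47 and the adjusted p 0.0152. With both of those libraries left out it was -0.44 (adjusted p = 0.112). 

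The 3 other receptor chains lie in a cluster on chromosome 16 that spans 192.8 kb from 91372783 to 91565623, all on the forward strand, in the order Ifnar2, Il10rb, Ifnar1, Ifngr2. Ifngr2 (ENSMUSG00000022965.8, 91547072 to 91565623), the chain that brings JAK2 to the IFN-γ receptor, was at 61.7, 66.2 and 72.4 CPM in control and 57.3, 56.2 and 56.2 CPM in IFNγR1KO libraries. The groups did not overlap. Its log2 fold change was -0.24 (standard error 0.13, 95% interval -0.52 to 0.04, adjusted p = 0.245 from edgeR), and -0.24 with an adjusted p of 0.0454 when the added term was in the fit. Without scrambled control 3 and IFNγR1KO 12 it was -0.17 (adjusted p = 0.346).

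Ifnar1 (ENSMUSG00000022967.13, 91485238 to 91507441), the chain to which TYK2 attaches, was at 68.0, 62.1 and 75.1 CPM in control and 60.5, 60.4 and 62.1 CPM in IFNγR1KO libraries. Control library 2 and IFNγR1KO library 12 overlapped. This gave a log2 fold change of -0.16 (95% interval -0.45 to 0.12, adjusted p = 0.452 from edgeR), and with the added term the adjusted p was 0.167. The RNA of Ifnar1 did not differ detectably at this depth, and the interval reaches up to 1.09-fold of control. The authors reported Ifnar1 mRNA as significantly higher in IFNγR1KO cells by real-time RT-PCR, a different measurement. The reason for the difference was not tested.

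Ifnar2 (ENSMUSG00000022971.18, 91372783 to 91405589), which binds type I interferon with high affinity and carries JAK1, was the receptor chain with a higher estimate in IFNγR1KO cells. Its control libraries were at 24.9, 25.7 and 22.5 CPM and its IFNγR1KO libraries at 30.3, 30.1 and 30.1 CPM, without overlap. The log2 fold change was 0.31 (standard error 0.14, 95% interval 0.01 to 0.61) with an adjusted p of 0.163 from edgeR. With the added term it was 0.31 and the adjusted p 0.0379, and without scrambled control 3 and IFNγR1KO 12 it was 0.25 (adjusted p = 0.244). In Ifnar2, 9.46% of exonic bases are shared with Gm21970, a gene model on the same strand that had 0 counts in every library. Reads on shared bases could have been set aside as ambiguous.

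With the added term, 3 of the 9 genes passed, Ifngr1 and Ifngr2 lower and Ifnar2 higher, while 34.6% of all 14009 genes tested in that fit passed. The share of the 9 was thus close to the share of all genes. Leaving out both libraries brought the count among the 9 back to 0. Groups without overlap in CPM, which 4 of the 9 genes had, were found for 32.6% of all tested genes. The exact permutation test of a single gene gave p = 0.1 for each of these 4, the smallest that 3 libraries against 3 allow.

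**Figure D2:**
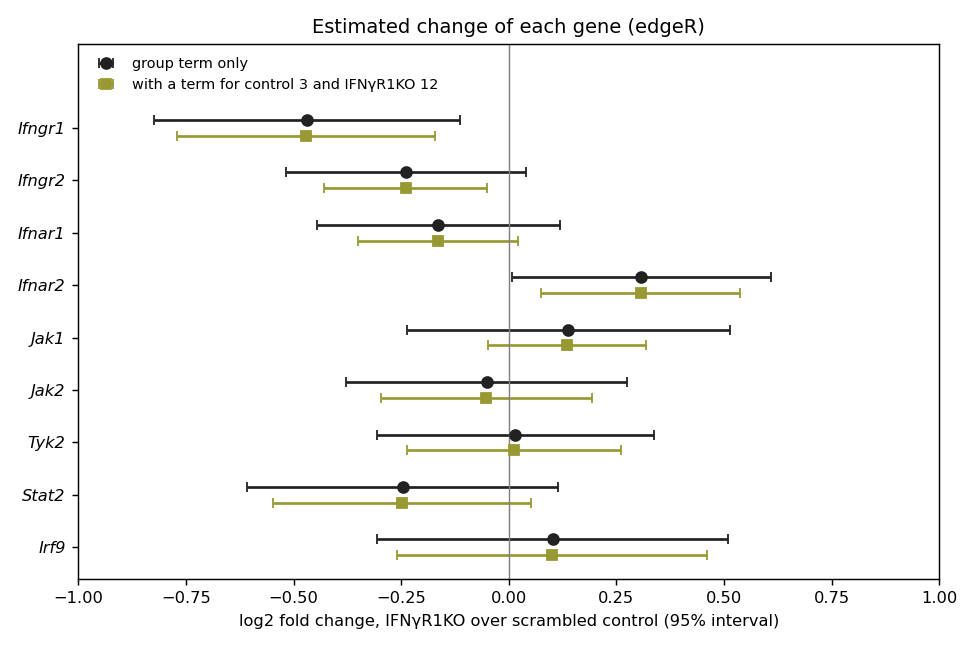
Log2 fold change of each gene (horizontal axis, IFNγR1KO over scrambled control) with its 95% interval from edgeR, in the fit with the group alone (black) and with a term for scrambled control 3 and IFNγR1KO 12 (olive). The estimates of both fits lie close together, and the intervals with the term are narrower and leave out 0 for Ifngr1, Ifngr2 and Ifnar2.

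Of the other genes within 250 kb of the cluster, 10 were tested: 2 were higher, 1 was lower and 7 did not change. Among all tested genes 15.3% changed. Il10rb, which encodes a chain of the IL-10 and type III interferon receptors and lies between Ifnar2 and Ifnar1, had a log2 fold change of -0.33 (adjusted p = 0.106 from edgeR). The gene that fell was Gart, an enzyme of purine synthesis, with a log2 fold change of -0.54 (adjusted p = 0.0206 from edgeR). Those that rose were Cryzl1, by 0.90, and Gm10785, by 0.81, which overlap each other on opposite strands, so that their reads may not be separate. None of the 4 receptor genes within the cluster passed.

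The RefSeq promoters of all 9 genes (GRCm38.p6, 250 bases before to 50 after the start) were searched on both strands for GAS, TTCNNNGAA, and for the ISRE core, which is GAAA repeated after a gap of 2 bases. The GAS letters were found in 8.30% and the ISRE letters in 3.44% of all 32851 promoters of this length. Among the 9 genes, Ifnar1 and Ifnar2 held the GAS letters and Stat2 the ISRE letters. The match in Ifnar1 was TTCACGGAA at chr16:91485210-91485218, across the start site from base -5 to base 4, and that in Ifnar2 was TTCCTGGAA at bases -214 to -206. The match in Stat2, at bases -222 to -213, was TTTCAGTTTC, on the reverse strand. The other 6 genes, Ifngr1 among them, held neither. By gene, 9.55% of all 27025 genes had a promoter with the GAS letters and 3.99% one with the ISRE letters. Of 16 GAF target genes, 6 held the GAS letters (37.5%) and 9 the ISRE letters (56.2%). Of 15 ISGF3 target genes, 4 held the GAS letters (26.7%) and 9 the ISRE letters (60%). Of 20 ligand genes, 10 held the GAS and 11 the ISRE letters. A match is a description of the letters and not evidence of binding. The 250 bases before the start are shown for the targeted gene and for the 2 genes whose match lies wholly within them, with matches in capitals.
Ifngr1, chr10:19591699-19591948, forward strand: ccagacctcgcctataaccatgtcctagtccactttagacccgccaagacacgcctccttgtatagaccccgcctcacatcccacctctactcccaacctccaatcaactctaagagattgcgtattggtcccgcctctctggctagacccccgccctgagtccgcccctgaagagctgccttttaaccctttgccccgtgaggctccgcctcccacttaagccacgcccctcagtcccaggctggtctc
Ifnar2, chr16:91372533-91372782, forward strand: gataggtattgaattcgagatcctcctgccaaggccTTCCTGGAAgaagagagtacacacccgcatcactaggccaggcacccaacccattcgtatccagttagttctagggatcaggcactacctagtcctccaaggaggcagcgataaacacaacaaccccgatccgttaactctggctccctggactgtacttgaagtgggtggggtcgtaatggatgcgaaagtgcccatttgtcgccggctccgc
Stat2, chr10:128270248-128270497, forward strand: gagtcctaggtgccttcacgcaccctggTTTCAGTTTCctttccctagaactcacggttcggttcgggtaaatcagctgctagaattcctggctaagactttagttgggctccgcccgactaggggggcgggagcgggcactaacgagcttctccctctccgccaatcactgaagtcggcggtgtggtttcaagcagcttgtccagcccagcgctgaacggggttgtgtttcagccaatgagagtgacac

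The estimates of the kinases lay between -0.05 and 0.14 on the log2 scale. Jak1 (ENSMUSG00000028530.14, chromosome 4, 101152367 to 101265282, reverse strand), which serves both receptors, was at 53.4, 60.0 and 76.8 CPM in control and 61.0, 63.7 and 84.9 CPM in IFNγR1KO libraries. Its highest values were those of scrambled control 3 and IFNγR1KO 12, the libraries whose counts lay on longer genes. Jak1 has the most exonic bases of the 9 genes (7227), and a part of length in these values was not tested. Its log2 fold change was 0.14 (standard error 0.17, 95% interval -0.24 to 0.51, adjusted p = 0.654 from edgeR). With the added term its standard error was 0.09 and the interval -0.05 to 0.32 (adjusted p = 0.253).

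Jak2 (ENSMUSG00000024789.13, chromosome 19, 29251828 to 29313080, forward strand), the kinase on IFNGR2, was at 22.9, 26.2 and 29.2 CPM in control and 26.0, 23.4 and 26.2 CPM in IFNγR1KO libraries, which lay within the control range. The log2 fold change was -0.05 (95% interval -0.38 to 0.28, adjusted p = 0.865 from edgeR). Tyk2 (ENSMUSG00000032175.11, chromosome 9, 21104068 to 21131243, reverse strand), the kinase on IFNAR1, was at 25.6, 25.8 and 27.4 CPM in control and 29.0, 22.9 and 27.8 CPM in IFNγR1KO libraries. Here the control libraries lay within the IFNγR1KO range, with a log2 fold change of 0.02 (95% interval -0.31 to 0.34, adjusted p = 0.965 from edgeR). The estimates of all 3 kinases changed sign when single libraries were left out. In Tyk2, 8.07% of exonic bases lie under the antisense gene 1700084C06Rik, which had 109 to 155 counts in control and 54 to 85 in IFNγR1KO libraries. Scaled to library size, its means were 13.5 CPM in control and 9.57 CPM in IFNγR1KO libraries. The antisense gene did not change (log2 fold change -0.50, adjusted p = 0.123 from edgeR). The strand setting of the counting is not stated, so reads of these genes may not be separate. These are amounts of RNA and do not report phosphorylation of the kinases.

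Stat2 (ENSMUSG00000040033.16, chromosome 10, 128270559 to 128292849, forward strand) was at 18.8, 14.9 and 16.1 CPM in control and 14.9, 13.0 and 14.1 CPM in IFNγR1KO libraries. Control library 2 and IFNγR1KO library 10, the nearest of the groups, were both at 14.9 CPM. The log2 fold change was -0.25 (standard error 0.17, 95% interval -0.61 to 0.11, adjusted p = 0.369 from edgeR). Irf9 (ENSMUSG00000002325.15, chromosome 14, 55603571 to 55610030, forward strand), the DNA-binding partner of STAT2, was the lowest of the 9 at 9.44, 7.66 and 7.73 CPM in control and 8.81, 8.67 and 9.14 CPM in IFNγR1KO libraries. The groups overlapped, with a log2 fold change of 0.10 (95% interval -0.31 to 0.51, adjusted p = 0.775 from edgeR). Of the exonic bases of Irf9, 2.28% are shared with its neighbour Rnf31 on the same strand, which rose by 0.67 on the log2 scale (adjusted p = 0.026 from edgeR).

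Levels of different genes were compared as TPM, a level per exonic base scaled to the same total in every library. In control cells Ifngr2 was at 45.1 ± 7.88 TPM (SD, n = 3), Ifnar1 at 29.4 ± 5.77, Jak1 at 22.5 ± 6.52 and Ifnar2 at 18.5 ± 0.576. Ifngr1 followed at 14.2 ± 2.39, Jak2 at 13.2 ± 2.76, Tyk2 at 9.73 ± 1.36, Stat2 at 7.12 ± 1.09 and Irf9 at 3.89 ± 0.521. The receptor chain Ifngr2 thus stood at percentile 75.9 of all tested genes and the ISGF3 subunit Irf9 at percentile 17.1. In this order the libraries of Ifngr2 did not overlap those of Ifnar1, nor those of Ifnar2 those of Ifngr1, and Tyk2, Stat2 and Irf9 were each separate from the next. The neighbours Ifnar1, Jak1 and Ifnar2 overlapped across libraries, and so did Ifngr1, Jak2 and Tyk2. Within each control library, however, Ifnar1 was above Jak1 and Jak2 above Tyk2. In IFNγR1KO cells the TPM were 38.7 ± 3.15 for Ifngr2, 26.5 ± 2.73 for Ifnar1, 25.2 ± 7.07 for Jak1 and 23.4 ± 1.98 for Ifnar2. Ifngr1, at 10.4 ± 0.951 TPM, was there below Jak2, at 13.0 ± 1.67 TPM. Their ranges overlapped narrowly across libraries, but Ifngr1 was below Jak2 within each IFNγR1KO library. In library 12, for example, they were at 11.49 and 14.75 TPM. Tyk2, Stat2 and Irf9 were at 10.0, 6.09 and 4.26 TPM. With the longest transcript as the length, Ifngr2 and Ifnar1 were nearly level, at 35.0 and 34.1 TPM in control and 30.1 and 30.8 TPM in IFNγR1KO cells. By that length Jak2, at 10.1 TPM in control and 9.90 TPM in IFNγR1KO cells, was below Tyk2 in both groups, at 10.6 and 10.9 TPM. Ifngr1, at 14.6 and 10.7 TPM, was then above Jak2 in both, so the order of Ifngr1 and Jak2 in IFNγR1KO cells depends on the length used.

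**Figure D3:**
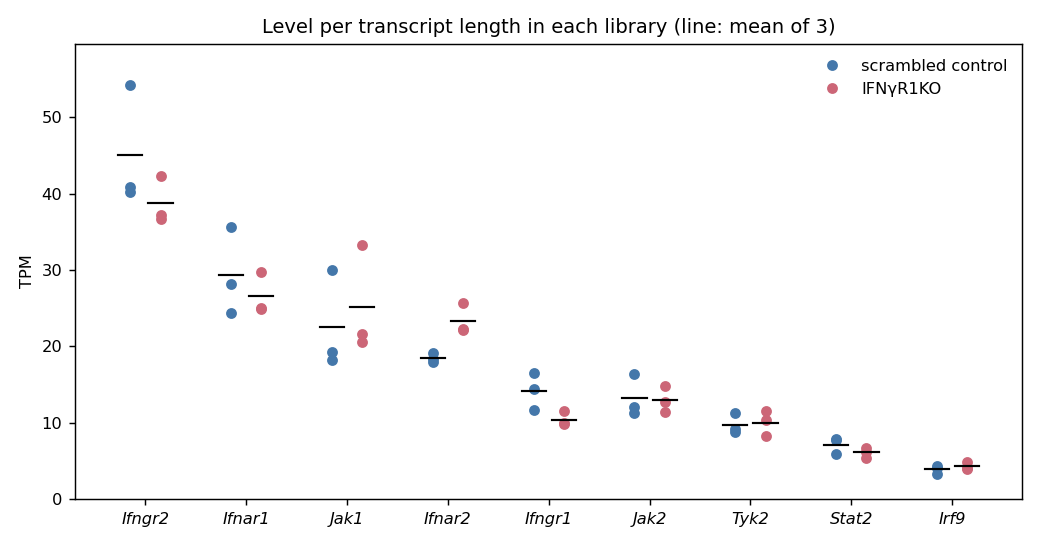
TPM (vertical axis) of each gene in the 3 libraries of scrambled control (blue) and IFNγR1KO cells (red), ordered by the control mean, with a line at each mean. Ifngr2 is highest and Irf9 lowest in both groups, and Jak1 has 1 library in each group well above the other 2.

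Ratios of partner genes, and of Ifngr1 to Ifnar1 from the 2 different receptors, were formed within each library, which removes the scaling between libraries. The ratio of Ifnar1 to Ifnar2 in TPM ran from 1.36 to 1.87 in control and from 1.12 to 1.16 in IFNγR1KO libraries. Ifngr1 to Ifngr2 ran from 0.287 to 0.359 in control and from 0.263 to 0.271 in IFNγR1KO libraries, so that the ligand-binding chain was the scarcer RNA of the IFN-γ receptor in both groups. Ifngr1 to Ifnar1 ran from 0.462 to 0.513 and from 0.387 to 0.398. The ratio of Stat2 to Irf9 ran from 1.77 to 1.90 in control and from 1.36 to 1.54 in IFNγR1KO libraries. These 4 ratios were lower in every IFNγR1KO library than in any control library. The share of other gene pairs that lie apart in this way was not determined. Each of the 4 holds a gene whose own groups did not overlap in CPM, which held for 32.6% of all tested genes. Jak1 to Jak2 and Jak1 to Tyk2 overlapped between the groups. The ratios are descriptions and were given no test.

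**Figure D4:**
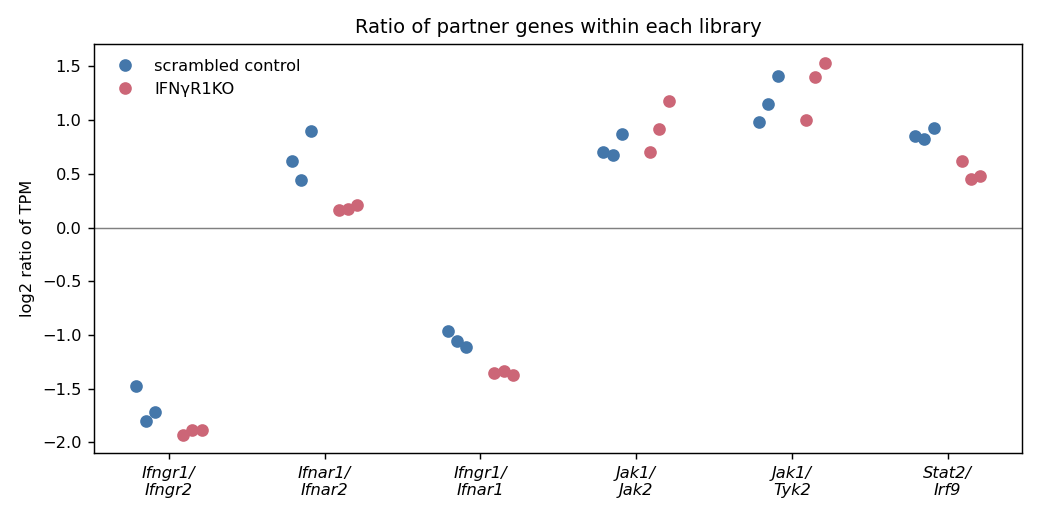
Log2 ratio of TPM (vertical axis) for 6 pairs of genes in each scrambled control (blue) and IFNγR1KO library (red). Ifngr1 and Ifnar1 belong to different receptors. The groups are apart for Ifngr1/Ifngr2, Ifnar1/Ifnar2, Ifngr1/Ifnar1 and Stat2/Irf9, and overlap for both ratios of Jak1.

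The ligands of these receptors were at or near 0. Of 21 interferon genes, 18 had no count in any library, among them Ifng and Ifnb1, and the other 3 had at most 2 counts in a library. A count of 0 allows up to 3 counts, which is 0.290 to 0.326 CPM in control and 0.406 to 0.426 CPM in IFNγR1KO libraries. Of 8 other chains of the same receptor family, 4 were tested and 1 was lower, F3, which encodes tissue factor, at 49.2 ± 1.69 CPM in control and 28.2 ± 1.14 CPM in IFNγR1KO cells (SD, n = 3 each, log2 fold change -0.80, adjusted p = 0.0017 from edgeR). Of Jak3 and 5 further STATs, 5 were tested and 1 was lower: Stat5a, at 30.2, 31.4 and 34.2 CPM in control and 18.3, 19.4 and 21.4 CPM in IFNγR1KO libraries (log2 fold change -0.70, adjusted p = 0.0070 from edgeR). Stat3 had a log2 fold change of -0.28 (adjusted p = 0.321 from edgeR). With the added term 2 of the 4 receptor chains and 3 of these 5 genes were lower, where 18.5% of all genes were. Without both libraries 2 and 2 were lower, where 22.3% of all genes changed in either direction. In the fit with the group alone 7.62% of all tested genes were lower.

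Among 13 negative regulators, 11 were tested, 2 were lower and none was higher, where 7.62% of all tested genes were lower and 7.73% higher. Socs3, a feedback inhibitor of JAK kinases, had a log2 fold change of -0.83 (adjusted p = 0.0110 from edgeR), and Ptpn6, which encodes the phosphatase SHP-1, of -0.67 (adjusted p = 0.0116 from edgeR). Without IFNγR1KO library 11 neither passed, and Ptpn6 also did not without control library 2. With the added term 1 was higher and 5 were lower, where 16.1% of all genes were higher and 18.5% lower. Without scrambled control 3 and IFNγR1KO 12 there was 1 higher and 2 were lower, where 22.3% of all genes changed. None of 8 genes of nuclear import and coactivation, such as Kpna1 and Crebbp, changed. In the fit with the added term 3 of the 8 were higher and 2 lower, where 34.6% of all genes passed, and without both libraries 0 were, where 22.3% of all genes passed. Their median log2 fold change was -0.05, and that of the negative regulators -0.19.

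Of 21 GAF target genes, 14 were tested, of which 9 were lower and none higher in IFNγR1KO libraries. Among all tested genes 7.62% were lower and 7.73% higher. The 14 had a median of -1.40 on the log2 scale. Irf1, itself a transcription factor, was at 27.7, 28.5 and 27.9 CPM in control and 16.5, 18.7 and 20.8 CPM in IFNγR1KO libraries (log2 fold change -0.59, adjusted p = 0.0203 from edgeR). It passed in 3 of the 6 fits that left out a library, and failed without control library 2, IFNγR1KO library 10 or IFNγR1KO library 11, as did Gbp7. Igtp, an immunity-related GTPase, had 111, 123 and 114 counts in control and 8, 1 and 17 in IFNγR1KO libraries, and Psmb8, a subunit of the immunoproteasome, 53, 62 and 61 against 6, 4 and 10. The others that were lower were the guanylate-binding proteins Gbp2 (-1.97 on the log2 scale), Gbp3 (-1.69), Gbp4 and Gbp7 (-1.95) and the immunity-related GTPases Irgm1 (-1.11) and Iigp1. Gbp4 had 65, 62 and 55 counts in control and 0, 0 and 5 in IFNγR1KO libraries, and Iigp1 63, 72 and 43 against 0, 1 and 9. The size of their change rests on IFNγR1KO 12, which holds nearly all of these counts, so no fold is given. Members of both families are similar in sequence, so their values are uncertain where reads could be shared. Of the tested genes that did not pass, Psmb9 and B2m had log2 fold changes of -0.98 and -0.40 (adjusted p = 0.0617 and 0.0628 from edgeR). Both were lower in every IFNγR1KO library than in any control library. Tap1, Cxcl10 and Cd274, which encodes PD-L1, had log2 fold changes of 0.03, 0.17 and 0.20 (adjusted p = 0.950, 0.483 and 0.647 from edgeR). The knockout cells had been screened by the PD-L1 protein, after IFN-γ. Gbp3, Gbp4, Gbp7, Igtp, Iigp1 and Psmb8 passed the filter on low counts only through their control libraries and thus had to differ. The count and the median of this list are therefore descriptions. With the added term 11 of 15 tested genes of the list were lower, where 18.5% of all genes were. It was also 11 of 15 without both libraries, where 22.3% of all genes changed in either direction.

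Of 19 ISGF3 target genes, 14 were tested, of which 3 were higher, 1 was lower and 10 did not change. Among all tested genes 7.73% were higher and 7.62% lower. The 14 had a median log2 fold change of 0.11. The filter removed Oas2, Oasl1, Oasl2, Irf7 and Ifi44, with at most 11 counts in a library. Each of them had a lower mean TPM in IFNγR1KO cells. Irf7 had 7, 11 and 5 counts in control and 0, 0 and 1 in IFNγR1KO libraries. Without the filter 2 genes of the list were higher and 2 lower. Isg15, a ubiquitin-like modifier, was at 5.97, 6.97 and 4.54 CPM in control and 16.8, 12.1 and 13.9 CPM in IFNγR1KO libraries (log2 fold change 1.29, adjusted p = 0.0020 from edgeR). Ifit1, which binds foreign RNA, had a log2 fold change of 2.27 and Mx2, an antiviral GTPase, of 1.23. Mx2 had only 6 to 11 counts in control and 12 to 19 in IFNγR1KO libraries. The filter on low counts kept it only through its IFNγR1KO libraries. It thus had to differ, so the count of this list is a description. Mx2 did not pass by DESeq2 (adjusted p = 0.161), nor without scrambled control 3 and IFNγR1KO 12 (adjusted p = 0.0838 from edgeR). Without these libraries the list held 2 genes that were higher and 2 that were lower, where 22.3% of all genes changed. Ifit1 has close paralogs, and how reads shared with them were assigned makes its value uncertain. The gene that fell was Eif2ak2, the kinase PKR, with a log2 fold change of -0.55 (adjusted p = 0.0375 from edgeR). Both Mx2 and Eif2ak2 passed in only 1 of the 6 fits that left out a library, the one without IFNγR1KO library 12. Rsad2 and Ifit3 had log2 fold changes of -0.07 and 0.08.

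**Figure D5:**
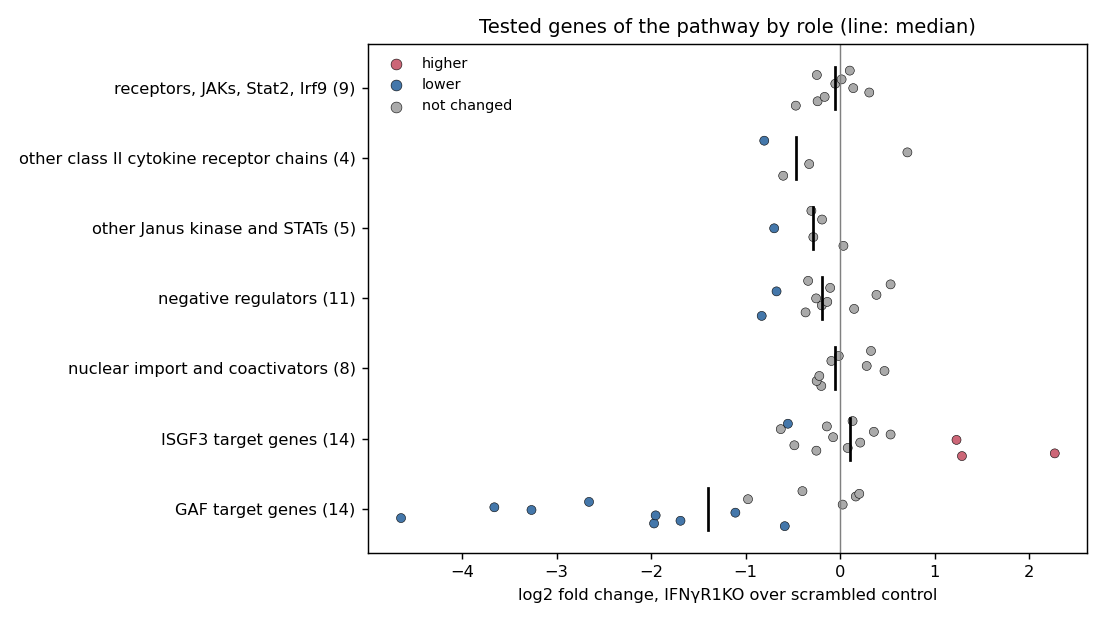
Log2 fold change, IFNγR1KO over scrambled control (horizontal axis), of each tested gene by its role, with the number of genes in brackets and a line at the median; red marks genes that were higher and blue genes that were lower with an adjusted p under 0.05. The 9 receptor, kinase and ISGF3 genes lie between -0.47 and 0.31. Of the 14 GAF target genes, 9 lie below -0.5 in blue. Among these, Gbp3, Gbp4, Gbp7, Igtp, Iigp1 and Psmb8 were kept by the filter only through their control libraries.

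By the Pearson correlation of log2 CPM over the 6 libraries, the genes whose levels were most like those of Ifngr1 were Slc25a13 (r = 0.996), Rad21 (r = 0.996) and Lpgat1 (r = 0.992). Of the tested genes, 644 had an r above 0.9 with it, and all of these share the same 6 libraries and groups.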

How the data were processed

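Poly(A)-selected RNA of 6 B16-BL6 cultures was sequenced with paired-end reads. STAR 2.7.5a was used by the authors for alignment to GRCm38, and the deposited files hold raw counts of reads on each gene, made with HTSeq 0.11.2. The strand setting and annotation release are not given in the sources used here. Between 45.95% and 47.03% of the reads listed per library were on genes and 46.92% to 47.7% on no gene, and the latter were left out. Groups came from the sample titles, with 3 libraries each. Cultures were seeded in triplicate, so p-values measure the spread between cultures.

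From the counts, GENCODE M21 (GRCm38) gave symbols, positions and exonic length for 55154 of 55335 identifiers, and TPM were computed from exonic length. edgeR 4.0.16 in R 4.3.3 was used with filterByExpr (minimum count 10, minimum total 15), TMM and the quasi-likelihood test, over 13642 genes. DESeq2 1.42.0 was an alternative, as were other scalings, no filter, leaving out each library, and 2 fits for the libraries that stand apart. The edgeR fit was tested on simulated counts. The genes, lists and tests were chosen with earlier results of these data known. Genes were named as follows: the 9 genes, genes that overlap them, genes near the chromosome 16 cluster, list genes that changed, and the 3 genes most like Ifngr1. Stat3, Kpna1, Crebbp, Tap1, Cxcl10, Cd274, Psmb9, B2m, Rsad2, Ifit3 and the untested ISGF3 target genes were chosen after their values were seen. One further STAT was not analysed here.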

Additional observations from a re-analysis of the deposited data

How the results depend on the processing

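No paired fit was run because the labels name no pairs and the libraries of the groups share no replicate number. Deviations from the group means correlated at r = 0.38 for control 1 with IFNγR1KO 10 and 0.60 for control 3 with IFNγR1KO 12. For control 2 it was 0.14 with IFNγR1KO 11 and 0.16 with IFNγR1KO 10. Whether cultures were paired cannot be told from the sources. None of the 9 genes passed under DESeq2, RLE or upper quartile scaling, without the filter on low counts, or with any 1 library left out, and the directions of Ifngr1, Ifngr2, Ifnar1, Ifnar2, Stat2 and Irf9 held in all 12 alternatives. With the term for scrambled control 3 and IFNγR1KO 12, added after the data were seen, 1 of the 9 was higher and 2 were lower, and 2261 genes of all were higher and 2585 lower, in place of 1054 and 1039. Without both libraries 1617 genes were lower. Leaving out 1 library gave 535 to 1372 genes higher and 457 to 1452 lower. The log2 fold change then ran from -0.030 to 0.30 for Jak1, from -0.14 to 0.036 for Jak2 and from -0.052 to 0.13 for Tyk2. It was -0.015 for Tyk2 without the filter and 0.0067 for Jak2 without both libraries. The causes were not tested. Precision was limited by depth for the lowest gene, Irf9, with 62 to 87 counts in a library.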

Other observations

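Of the 9 genes, 7 varied less between the 3 IFNγR1KO libraries than the value expected from counting error alone, where 24.4% of all tested genes did. A spread estimated from 3 libraries often lies below its expected value, so this is a description. The coefficient of variation was 0.786% for Ifngr1, 1.05% for Ifngr2, 1.58% for Ifnar1 and 0.348% for Ifnar2, and their counts alone would give 11.0%, 4.96%, 4.78% and 6.80%. In control libraries 1 of the 9 did so, Tyk2, against 17.9% of all tested genes. The biological coefficient of variation that edgeR used for the 9 genes, which borrows from other genes, was 11.4% to 15.3%, beside a median of 14.3% over all tested genes.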
